A study of Homo sapiens with 6 samples.

Results

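The radioresistant esophageal cancer line KY170R was followed over the day after irradiation. KY170R (kyse170R in the labels, described as non-sensitive to radiation) had been derived from the human esophageal squamous cell carcinoma line KY170 (kyse170, described as sensitive) by continuous fractionated irradiation and is a single resistant clone. Total RNA was labelled on Illumina Human-6 V3 bead arrays at 0, 8 and 24 h after X-rays of a 6MV linear accelerator. The description covers the 3 KY170R arrays of the 6 arrays in the series, and the 3 KY170 arrays of the same times are set beside them. Each line and time has 1 array, so no error can be given within a line and no difference between 2 times of KY170R can be tested. The dose behind the arrays is not stated in the texts read here. The study describes an RT-PCR time course with the same times as starting before irradiation, and does not say so for the 0 h arrays. No unirradiated cells were profiled at 8 or 24 h, so radiation and time in culture cannot be told apart, and in bulk RNA fewer cells of a kind and less RNA per cell cannot be told apart either.

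Deposited values were background-subtracted linear intensities that the authors had normalized between arrays. The size of the most negative value over all 6 arrays, 24.5, was taken as the background limit. The probes described are those above it on at least 1 of the 3 KY170R arrays, which were 18157 of 48803 probes (37.2%), of which 14064 carried 1 gene symbol and stood for 10820 of the 18665 genes named on the array. Of the 18157 probes, 13332 were above the limit on all 3 arrays, 2410 on 2 and 2415 on 1. The lowest maximum among the probes taken in was 24.540 and the highest among those left out 24.532. Values were raised to the limit before log2 was taken, and all changes given below are log2 differences from the 0 h array of the same line. A gene is represented in the gene lists by its brightest probe, and called higher or lower where its change was at least 2-fold, which is a rule of size and not a test. Where 3 intensities follow each other for a gene, they stand for 0, 8 and 24 h, in KY170R unless KY170 is named.

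Ionizing radiation breaks DNA, and cells answer by halting division through the ATM and ATR kinases, by repairing breaks through homologous recombination or end joining, and by inducing p53 target genes where p53 works. Beyond this, stressed cells can switch on immediate early genes such as EGR1 and FOS, which follow growth factor and MAP kinase signals, the unfolded protein response, which raises chaperones of the endoplasmic reticulum (ER), and the integrated stress response, in which ATF4 and CHOP raise amino acid supply genes. Stratified squamous epithelium, from which these carcinomas arise, divides in its basal layer and differentiates above it.

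A large part of the measured transcriptome of KY170R lay at least 2-fold from its 0 h level at each later time. At 8 h, 3063 of the 18157 probes lay 2-fold or more above 0 h (16.9%) and 2746 as far below it (15.1%). At 24 h the numbers were 3837 (21.1%) and 3642 (20.1%). Between the later arrays the difference was smaller: 1504 probes (8.28%) were at least 2-fold higher at 24 h than at 8 h and 1363 (7.51%) lower. Counted over genes, 1998 (18.5%) were higher and 1796 (16.6%) lower at 8 h, 2482 (22.9%) higher and 2327 (21.5%) lower at 24 h, and 990 (9.15%) higher and 878 (8.11%) lower at 24 h than at 8 h. The 0 h array stood apart, with a correlation across the 18157 probes of 0.918 with the 8 h array and 0.893 with the 24 h array, against 0.959 between the later 2 arrays. It did so in KY170 as well, where over the same probes the values were 0.930, 0.924 and 0.969. Between the lines at the same time the correlation was higher than between times of KY170R, at 0.973 (0 h), 0.982 (8 h) and 0.975 (24 h). Probes are not independent replicates, and the 8 h and 24 h changes share the 0 h array, so anything particular to that array enters both. In KY170 the same probes, which were chosen on the KY170R arrays, gave smaller counts, with 2539 higher and 2465 lower at 8 h, and 3064 higher and 2751 lower at 24 h. The median change of probes above the limit on all 3 KY170R arrays was -0.05 at 8 h and -0.15 at 24 h, and changes below are to be read against that shift.

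**Figure D1:**
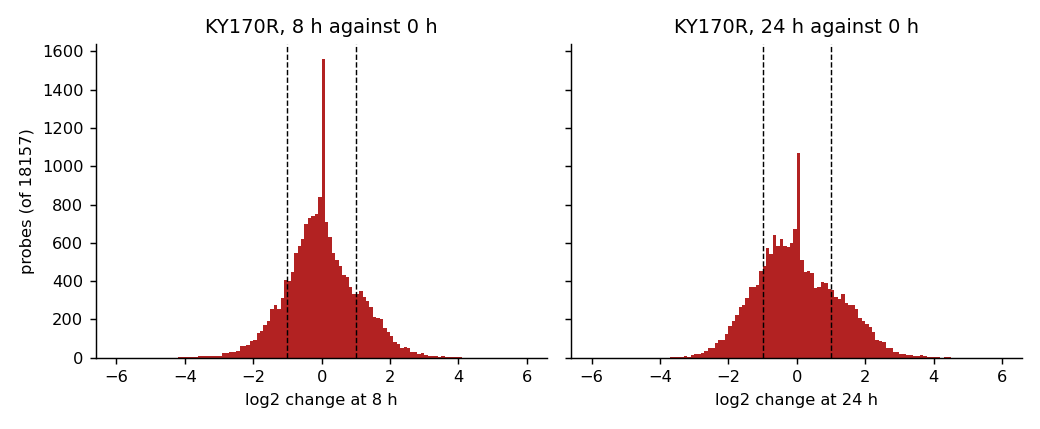
Histograms of the log2 change of 18157 probes in KY170R at 8 h (left) and at 24 h (right) against 0 h, with probes per 0.1 log2 on the vertical axis and dashed lines at 2-fold. At 24 h, 21.1% of probes lay beyond the upper line and 20.1% beyond the lower one.

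The genes with the largest positive changes at 8 h were read near background at 0 h. MIR181A2HG, the host transcript of a microRNA-181 cluster, had intensities of 44.2, 748 and 541 at 0, 8 and 24 h, 16.9-fold higher at 8 h. RSRP1, an arginine and serine rich protein gene, was below 0 at 0 h (-2) and read 407 and 449.7 at 8 and 24 h, at least 16.6-fold and 18.3-fold higher. RAB12, a small GTPase of vesicle traffic, read 27, 406 and 488, and its second measured probe 93.1, 142 and 195. The zinc finger genes ZNF195, ZNF286A, ZNF146 and ZNF10 and the gene TTC14 made up the rest of the 8 largest, each under the limit at 0 h on that probe and at least 13.1-fold higher at 8 h. A second TTC14 probe was above the limit at 0 h (37.4, 468 and 462), 12.5-fold higher at 8 h. ZNF146 also has a second measured probe, which stayed under 2-fold (46.8, 39.6 and 33.8). Over all genes whose symbol begins with ZNF, a grouping made after their values were seen, 100 of 267 were at least 2-fold higher at 8 h (37.5%) and 94 at 24 h (35.2%), beside 18.5% and 22.9% of all measured genes. In KY170, 86 of these 267 genes were higher at 8 h (32.2%) and 79 at 24 h (29.6%), beside 14.1% and 17.9% of the same measured genes. In KY170, RSRP1 read 11.3, 323 and 433 and MIR181A2HG 45.1, 298 and 369.

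The 8 genes with the largest negative changes at 8 h included GDF15, a stress cytokine induced by p53 and ATF4, which read 1635, 86.1 and 4042 at 0, 8 and 24 h, 19-fold lower at 8 h and 2.47-fold higher at 24 h. ELF3, an epithelial transcription factor, read 2038, 112 and 1891, so that it was 18.2-fold lower at 8 h and close to its 0 h level at 24 h. SOX18 and GRB7, an adaptor of receptor tyrosine kinases, read 598, 33.4 and 299.5 and 766, 46.2 and 214. The brightest GRB7 probe read 2584, 227 and 1444 and its dimmest 64, 3.2 and 57.4, both under 2-fold from 0 h at 24 h. HRK, a pro-apoptotic member of the BCL2 family, read 389, 16.2 and 87.9, at least 15.8-fold lower at 8 h. YPEL3 and DHRS3, a retinal reductase, read 733, 46.6 and 219 and 3431, 222 and 1938. SIPA1, which inactivates the GTPase RAP1, was at least 16.1-fold lower at 8 h by one probe (396, 23.8 and 151) and 13-fold lower by another (976.5, 75.1 and 791). In all 8 genes the 24 h value lay above the 8 h value, an outcome favoured by choosing them for their low 8 h values. In KY170 the 8 h value was likewise the lowest for GDF15 (4048, 94.9 and 991) and ELF3 (2342, 152 and 1002).

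Another set differed at 8 h alone, by at least 4.62-fold, and lay within 0.5 log2 of 0 h at 24 h. FST, which encodes follistatin, a secreted inhibitor of activins, read 10.2, 274 and 33.2 on the probe with the larger change and 2405, 11672 and 3100 on its bright probe. ZBED2, a repressor in keratinocytes, read 43.1, 517 and 59.4, against -3.2, 37.7 and 3.7 in KY170. TNRC6A, a partner of Argonaute in microRNA silencing, read 264, 1444 and 359, and its other probes read 11.1, 219 and 47.2 and 41.3, 21.9 and 27.0. KRTAP2-4, MARCHF4 and LAMA1 were the other 3 genes higher at 8 h alone. A second LAMA1 probe read 1.7, 26.1 and 7.9, close to the limit at 8 h and under it at the other times. Those lower at 8 h alone were ELF3, SIPA1, RAB26, PADI3, ZBTB46 and ILDR1. PADI3, an enzyme of keratinocyte differentiation that turns arginine into citrulline, read 903, 80.1 and 727 in KY170R and 3365, 1499 and 2058 in KY170.

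Genes low at both later times included TERC, the RNA template of telomerase, at 529.9, 59.9 and 42.4 in KY170R and 771, 132 and 78.9 in KY170. ATOH8, a basic helix-loop-helix factor, read 287, 1.8 and 24.4, at least 11.7-fold lower at 8 h. MXD3, a MYC antagonist of the MAD family, read 687, 68.3 and 82.7, LRRC26, a subunit of BK potassium channels, 1157, 129.7 and 144, and SULT2B1, a cholesterol sulfotransferase of differentiating epithelium, 194, 5.6 and 20.1. A second SULT2B1 probe read 484, 179 and 146 and a second ICAM4 probe 485, 62.0 and 111.0, both lower at 8 and 24 h. RPPH1, the RNA of ribonuclease P, was lowest at 24 h, at 703, 343 and 58.8, as was NOXO1, a regulator of the NADPH oxidase NOX1, at 408, 121 and 27.8 by its first probe and 303, 72.1 and 36.1 by its second. TDP1, which clears blocked DNA ends, read 4074, 1574 and 314 on 1 probe, while its other measured probes read 111, 105 and 82.7 and 28.1, 60.7 and 38.1, so no direction is given for that gene. UXT and MRPL11, among the 8 largest negative changes at 24 h on dim probes (11.6-fold and 12.1-fold), were 3.98-fold and 2.43-fold lower on their brightest probes.

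The genes with the largest positive changes at 24 h were CCN2, EGR1, CREBRF, GOLGA8B, RSRP1, RAB12, SLC38A1 and PHIP. SLC38A1, a transporter of glutamine, read 39.2, 455 and 636 on the probe with the larger change and 736.5, 2248 and 3286 on its bright probe. CREBRF, a regulator of CREB3, read 23.4, 108 and 491, at least 20-fold higher at 24 h, and 8.0, 66.2 and 319 on its second probe. PHIP, a chromatin reader, read 13.9, 223 and 380.3, at least 15.5-fold higher at 24 h. GOLGA8B read 60.1, 521 and 1179, but it belongs to a family of near copies, so that which of them its probe reads is uncertain. The KY170 values were 68.4, 659.7 and 675 for SLC38A1, 35, 28.2 and 164 for CREBRF and 70.8, 121 and 359.8 for PHIP, each highest at 24 h as well.

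Late changes, within 0.5 log2 of 0 h at 8 h, were led by CCN2, a matricellular growth factor of the CCN family. It read 61.2, 81 and 1421 in KY170R, 23.2-fold higher at 24 h, and 786, 192 and 93.9 in KY170, where both later values lay below that of 0 h. FOS, an immediate early transcription factor, read 82.3, 70.7 and 966 in KY170R and 104, 58.6 and 92.5 in KY170. HMMR, a hyaluronan receptor and spindle protein of dividing cells, read 613, 825 and 5069 in KY170R and 539.6, 489 and 2987 in KY170. IL1A, an alarmin of the interleukin-1 family, read 2449, 3428 and 16233 in KY170R and 2114, 513 and 1935 in KY170. MBNL2, a regulator of splicing, read 18.3, 25.2 and 253, and its second probe 13.1, 82.2 and 269. One of the AKR1C2 probes read 8.4, 16.2 and 214, while the bright AKR1C2 probe read 18055, 11333 and 20321. The late decreases were those of ACTL10, AKT1S1, PAGR1, PCOTH, NACC1 and AP5S1, each at least 6.01-fold lower at 24 h, and AKT1S1, an inhibitory subunit of the kinase complex mTORC1, read 206, 155 and 7.9. A second PAGR1 probe was lower at 8 h as well (558.8, 255 and 91.4).

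The gene lists ordered these changes by function. Of 34 lists with 885 entries, 817 entries matched a gene on the array and 703 were measured in KY170R. The lists with the highest medians at 24 h were those of G2/M, of EGFR ligands and receptors, of SR splicing proteins with their kinases, of the ATF4 and CHOP response, of double-strand break repair and of ER chaperones. Apart from markers of other cell types, the lowest medians were those of mitochondrial ribosomal proteins, antioxidant enzymes, the BCL2 family and replication-dependent histones. No list was tested, since each time has 1 array, and counts are to be read beside the shares of all measured genes given above.

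**Figure D2:**
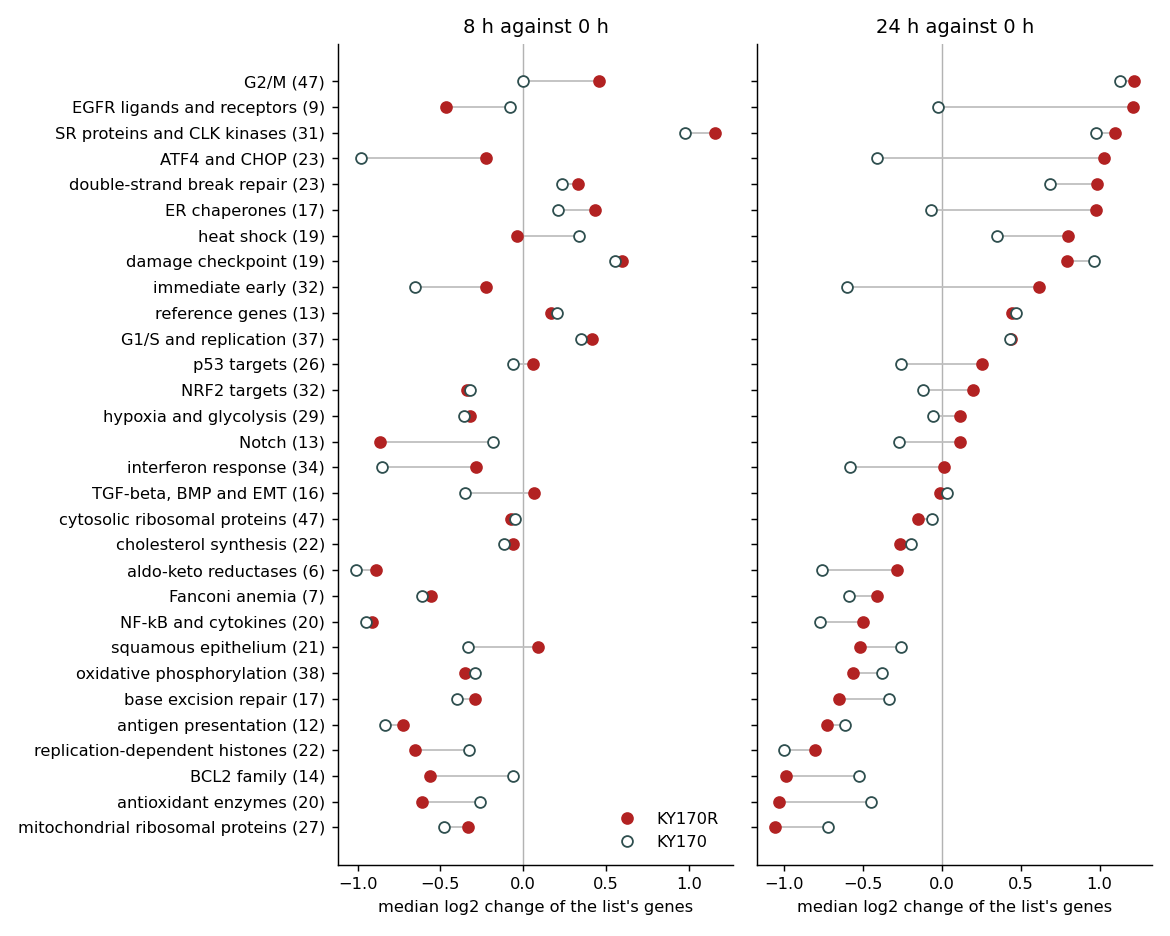
Median log2 change of the gene lists at 8 h (left) and 24 h (right) against 0 h, with the number of genes measured in KY170R in brackets. The marker lists of other cell types and the list of nuclear noncoding RNAs are not drawn. Lists are ordered by the KY170R median at 24 h. Filled points are KY170R, open points KY170 over the same probes. The points of the 2 lines lie close together for G2/M at 24 h (1.22 in KY170R, 1.13 in KY170) and far apart for the ATF4 and CHOP list (1.03 in KY170R, -0.41 in KY170).

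Splicing genes were the group with the highest median at 8 h. SR proteins bind exons and recruit the splicing machinery, and CLK and SRPK kinases phosphorylate them. At 8 h 19 of 31 measured genes lay 2-fold or more above 0 h and 0 below it, and at 24 h 17 were higher and 0 lower, with medians of 1.16 and 1.10. SRSF2 read 5014, 11665 and 8548, SRSF6 1207, 3063 and 2864 and SRSF1 542, 1800.2 and 1297, all highest at 8 h. TRA2A, which like TRA2B promotes exon inclusion, read 392, 872 and 1489. Among kinases and partners, PNISR read 214, 797 and 1058, SRPK2 60.4, 258 and 236 and CLK4 7.8, 78.2 and 77.4, with CLK4 under the limit at 0 h. CLK1 read 51.2, 39.9 and 44.9 on its only measured probe. In KY170 the medians of the same genes were 0.98 and 0.98. Over all genes, genomic length went with the direction of change: the median genomic span was 47.6 kb for genes at least 2-fold higher at 8 h and 14.9 kb for those lower, and 53.5 kb and 11.2 kb at 24 h, beside 27.96 kb for all measured genes. The 0 h level moved with the direction too, with a median intensity of 155 for genes higher and 383 for genes lower at 8 h, and of 179 and 506 at 24 h, and its part in the length difference was not tested.

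Genes of G2 and mitosis were often higher than at 0 h, more of them at 24 h. At 8 h 15 of 47 measured genes lay 2-fold or more above 0 h and 2 below it (median 0.46), and at 24 h 26 were higher and 1 lower (median 1.22). Set against 8 h, 6 of the 47 were 2-fold or more higher at 24 h, 1 lower and 40 under 2-fold. Of the kinases and cyclins, TTK, which drives the spindle checkpoint, read 279, 924 and 1840.2, CDK1, the mitotic kinase, 316, 678 and 1252, and BUB1 299, 335 and 1079.8, whereas PLK1 read 797, 249 and 403 and AURKB 5932, 4973 and 3856, both below 0 h. At the kinetochore and spindle, HMMR and NUF2 led (3.05 and 2.63 log2 at 24 h), followed by CENPE, a kinesin that moves chromosomes, at 218, 752 and 1032. SPC24 was the member at least 2-fold lower at 24 h, at 3449.5, 1296 and 1126. Of the genes that shape and separate chromosomes, TOP2A, the topoisomerase of dividing cells, read 3171, 7270.4 and 13935 and ANLN 186, 654 and 914. CDC20 and UBE2C, which act at the exit from mitosis, were within 0.05 log2 of 0 h at 24 h. KY170 had a median of 0.00 at 8 h and 1.13 at 24 h. MKI67 went another way in each line, at 369.7, 435 and 189.5 in KY170R and 149, 242 and 307 in KY170.

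Many G2/M genes carry a cell cycle homology region (CHR), the site of repression by the DREAM complex outside G2 and M. The letters TTTGAA or TTCGAA, sought on both strands in the 250 bases before each RefSeq start (GRCh38.p14, with a gene counted where any of its starts matched), were found for 22 of the 40 measured G2/M genes with a promoter entry (55.0%), and for 14.1% of all 8865 measured genes with one. Of 35116 starts, 14.3% held a match. The stretches around the match nearest the start are shown for members of each role, on the strand of the gene with the match in capitals (TTCAAA is the same element on the other strand):
HMMR: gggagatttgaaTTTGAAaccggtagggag
CDK1: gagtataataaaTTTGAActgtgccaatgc
TOP2A: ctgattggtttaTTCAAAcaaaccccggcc
ANLN: ctgaaattcaaaTTTGAAcggctgcagagg
PLK1: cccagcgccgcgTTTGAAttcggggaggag
CDC20: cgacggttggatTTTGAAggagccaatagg
The HMMR match lies 22 to 17 bases before the start on chromosome 5, that of PLK1 29 to 24 bases before it on chromosome 16, and that of TOP2A 151 to 146 bases before it on chromosome 17. Presence of these letters did not separate the genes by size of change: 12 of 22 with a match and 11 of 18 without were at least 2-fold higher at 24 h, with medians of 1.25 and 1.36. HMMR and PLK1, whose stretches both hold the match close to the start, had 24 h changes of 3.05 and -0.98.

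Sensors and mediators of DNA damage were higher in part, with 6 of 12 at least 2-fold higher and 0 lower at 8 h. Of the whole list, at 8 h 8 of 19 measured checkpoint genes lay 2-fold or more above 0 h and 1 below it, and at 24 h 9 were higher and 2 lower. TOPBP1, which activates ATR, read 24.9, 151 and 262, ATM 85.8, 322 and 471, RAD17 76.3, 279 and 365 and MRE11 124, 262 and 653, each highest at 24 h, while NBN, the partner of MRE11 and RAD50, read 484, 2561 and 1385 and was highest at 8 h. Effectors were mixed, with CHEK1 at 487, 1128 and 1444, CDC25A, a phosphatase that opens S phase, at 705, 1747 and 589 and H2AX, the histone marked at breaks, at 4926, 4743 and 2003. In double-strand break repair, 9 of 23 measured genes were higher and 1 lower at 8 h, and 11 higher and 4 lower at 24 h (medians 0.33 and 0.98). RAD54B read 194, 694 and 914, BARD1, the partner of BRCA1, 457, 1407 and 2062, and POLQ, the polymerase of microhomology end joining, 362, 1663 and 1557. XRCC2 and XRCC3, which act in homologous recombination, were at least 2-fold lower at 24 h, and XRCC2 read 552, 288 and 215. The KY170 medians were 0.55 and 0.97 for checkpoint genes and 0.24 and 0.69 for break repair genes.

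The p53 target list showed little shared direction. At 8 h 4 of 26 measured p53 target genes lay 2-fold or more above 0 h and 2 below it (median 0.06), and at 24 h 8 and 5 (median 0.25). CDKN1A, the p21 inhibitor of cyclin-dependent kinases, read 6268, 3315 and 7901 in KY170R and 4555, 1331 and 2864 in KY170. RRM2B, a ribonucleotide reductase subunit, read 52.2, 134 and 402, CCNG1 61.5, 158 and 255, MDM2, the ubiquitin ligase of p53, 6.2, 42.7 and 101, and GADD45A 1080.3, 1327 and 2959.9. SFN, also known as 14-3-3 sigma, read 8232, 8931 and 2183, TP53I3 688, 333 and 116 and PHLDA3 906, 524 and 258, all lowest at 24 h. For S phase, 11 of 37 replication genes were higher and 1 lower at 8 h, and 10 higher and 2 lower at 24 h. RRM2, the limiting subunit of ribonucleotide reductase, read 699, 4894 and 1912, CDC6, which licenses origins, 43.3, 182 and 103, and MCM5 3123, 1458 and 1375. Base excision repair lay on the other side, with 1 of 17 higher and 6 lower at 8 h, and 2 higher and 8 lower at 24 h. NTHL1, a glycosylase for oxidized pyrimidines, read 2213, 773 and 594 and XRCC1, the scaffold of single-strand break repair, 988, 343 and 321, while TDG, a thymine glycosylase, read 1132, 4317 and 3970.3.

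Chaperones of the ER were higher at 24 h in KY170R. At 8 h 7 of 17 measured genes lay 2-fold or more above 0 h and 1 below it, and at 24 h 8 and 0 (medians 0.43 and 0.98, against 0.21 and -0.07 in KY170). HSPA5, the master chaperone of the ER also called BiP, read 368, 787 and 4760.2 in KY170R, 13-fold higher at 24 h, and 1664, 836 and 377 in KY170, where it was lowest at 24 h. HSP90B1, the ER form of HSP90, read 1986, 5271 and 16329 in KY170R and 3352, 5580.4 and 9299 in KY170. DNAJB9, a cofactor of HSPA5 that acts on the sensor IRE1, read 81.7, 259.9 and 813 in KY170R and 195, 287 and 186 in KY170. XBP1, the transcription factor of the unfolded protein response, read 1876, 1899 and 3909 on its brighter probe, and its other probe was at 1148, 991 and 2760. CALR, HYOU1, CRELD2 and SDF2L1 did not reach 2-fold in either direction, and CALR read 1664, 1834 and 1056. The 24 h value thus exceeded the 8 h value of KY170R for HSPA5, HSP90B1, DNAJB9 and XBP1, whereas in KY170 it did so for HSP90B1 and XBP1.

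The ER stress element, CCAAT followed after 9 bases by CCACG, is the site that ATF6 and the factor NF-Y use at chaperone genes. Sought on both strands in the same 250 bases, it was found at 26 of 35116 starts (0.0740%), and by gene at 7 of 17 measured ER chaperone genes (41.2%) against 15 of 8865 measured genes (0.169%). Its first part, CCAAT, is by itself a common box, found at 32% of starts. The promoters of HSPA5 and HSP90B1, which had the largest 24 h changes among the list's genes with the element, are shown in full from RefSeq (GRCh38.p14) on the strand of the gene, with the element in capitals, HSPA5 at chr9:125241344-125241593 on the minus strand and HSP90B1 at chr12:103930160-103930409 on the plus strand:
HSPA5: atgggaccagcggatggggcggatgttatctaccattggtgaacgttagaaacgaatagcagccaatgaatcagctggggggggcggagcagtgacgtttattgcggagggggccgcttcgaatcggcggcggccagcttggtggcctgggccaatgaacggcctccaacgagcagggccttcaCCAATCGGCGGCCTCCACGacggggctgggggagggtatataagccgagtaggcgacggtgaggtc
HSP90B1: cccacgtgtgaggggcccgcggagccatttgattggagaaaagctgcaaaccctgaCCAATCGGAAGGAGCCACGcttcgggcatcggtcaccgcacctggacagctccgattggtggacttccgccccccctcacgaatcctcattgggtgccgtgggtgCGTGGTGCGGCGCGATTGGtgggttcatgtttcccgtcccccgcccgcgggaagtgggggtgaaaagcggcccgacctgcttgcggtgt
HSPA5 held 1 match, 66 to 48 bases before the start. HSP90B1 held 2, of which the one nearer the start runs on the other strand. The matches nearest the start of the 7 genes, each turned to read from CCAAT, were:
HSPA5 element: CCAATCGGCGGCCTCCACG
HSP90B1 element: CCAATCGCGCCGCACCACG
XBP1 element: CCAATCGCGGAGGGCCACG
PDIA6 element: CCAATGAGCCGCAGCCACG
CANX element: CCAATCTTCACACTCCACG
CRELD2 element: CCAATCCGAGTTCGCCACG
CALR element: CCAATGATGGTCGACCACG
Their 24 h changes in KY170R were 3.69, 3.04, 1.06, 0.95, 0.98, -0.20 and -0.66 in the order of the lines, so genes with the same outer letters ran from 13-fold higher to below 0 h. The 15 measured genes with the element include the 7 ER chaperone genes above. Over all 15, 9 were at least 2-fold higher and 2 lower at 24 h, with a median of 1.18 in KY170R and 0.18 in KY170. Of all measured genes 22.9% were higher and 21.5% lower at 24 h in KY170R. Within the ER chaperone list the element did not separate the genes: 3 of 7 with it (median 0.97) and 5 of 10 without it (median 0.85) were at least 2-fold higher at 24 h. A match is a description of letters and not evidence of binding.

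The ATF4 and CHOP genes were likewise higher at 24 h in KY170R. At 8 h 1 of 23 measured genes lay 2-fold or more above 0 h and 1 below it, and at 24 h 12 and 0, with medians of -0.23 and 1.03 in KY170R and -0.98 and -0.41 in KY170. Among the regulators, DDIT3, which encodes CHOP, read 356, 356 and 2254 in KY170R and 922, 351 and 375 in KY170. ATF3 read 563, 481 and 2802 in KY170R and 1539.7, 416 and 986 in KY170, and PPP1R15A, which restarts translation, 2096, 2841 and 4279.8 in KY170R and 3308, 3345 and 1700 in KY170. ATF4 itself read 1244, 850.2 and 2052, under 2-fold at both times. Of the genes of amino acid supply, ASNS, the asparagine synthetase, read 1181, 1705 and 5098 in KY170R and 3119, 2721 and 5070 in KY170. CTH, which makes cysteine, read 132, 124 and 507 in KY170R and 410, 182 and 309 in KY170. CBS read 27.6, 15.2 and 140.4 in KY170R, with its 8 h value under the limit. At 0 h KY170 lay above KY170R for DDIT3, ATF3, PPP1R15A, ASNS and CTH, so the 0 h level enters the difference between the lines in these changes. TRIB3 dipped at 8 h, at 927, 251 and 1198.

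Immediate early genes were the most uneven of these groups. At 8 h 3 of 32 measured genes lay 2-fold or more above 0 h and 4 below it, and at 24 h 11 and 2, with medians of -0.22 and 0.62 in KY170R and -0.66 and -0.60 in KY170. EGR1, a zinc finger factor, read 65.6, 153 and 1364 in KY170R, 20.8-fold higher at 24 h, and 150, 194 and 61 in KY170. FOSB read 379.8, 316 and 1307 in KY170R and 676, 426 and 329 in KY170. MYC, which drives growth and ribosome production, read 6979.7, 7037 and 21888 in KY170R and 11308, 10300 and 13861 in KY170. DUSP1, a phosphatase that ends MAP kinase signals, read 1678, 1044 and 6401 in KY170R and 4036, 1877 and 1641 in KY170. Other members had 24 h values below 0 h, with JUNB at 1853, 817 and 1509, KLF2 at 179.5, 25.9 and 66.5 and IER2 at 109, 84.2 and 43.1. NR4A1, NR4A2 and NR4A3 had no probe above the limit in KY170R.

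The promoter of EGR1, the member with the largest 24 h change of the list at its brightest probe, is shown with its CArG boxes in capitals. A CArG box, bound by serum response factor, is CC, 6 bases that are A or T, and GG. The 250 bases before the RefSeq start, at chr5:138465229-138465478 on the plus strand of GRCh38.p14, were:
EGR1: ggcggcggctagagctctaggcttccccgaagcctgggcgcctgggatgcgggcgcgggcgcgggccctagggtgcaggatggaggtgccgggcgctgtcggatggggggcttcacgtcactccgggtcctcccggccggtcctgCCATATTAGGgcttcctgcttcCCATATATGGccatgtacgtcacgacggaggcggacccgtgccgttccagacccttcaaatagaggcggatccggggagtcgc
The boxes lie 105 to 96 and 83 to 74 bases before the start. Among all 35116 starts 1.16% held a CArG box, and of the 25 measured immediate early genes with a promoter entry EGR1 alone had one within this window. The 133 measured genes with a box had a median 24 h change of 0.00 in KY170R, so the letters by themselves did not go with higher values.

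Secreted inflammatory factors split at 24 h. IL1B read 6976, 2249 and 14145 in KY170R and 5274, 811 and 3119.5 in KY170, CXCL8, a neutrophil chemokine, 4842, 2061 and 12865 in KY170R and 3155, 633 and 1581 in KY170, while SAA1, an acute phase protein, read 242, 74 and 41.1 and IL32 966, 322 and 275 in KY170R. Over the NF-kB and cytokine list, 7 of 20 measured genes were higher and 5 lower at 24 h, and 2 higher and 8 lower at 8 h. Among EGFR ligands and receptors, 5 of 9 were higher and 2 lower at 24 h. The ligand HBEGF read 1648, 1192 and 4785 in KY170R and 1359, 1285 and 1718 in KY170, NRG1, a ligand of ERBB3 and ERBB4, 155, 1235 and 723, and the receptor EGFR 1012, 2401 and 2344 in KY170R and 1433, 1905 and 1294 in KY170. ERRFI1, a feedback inhibitor of EGFR, read 1044, 1150.4 and 6810.3 in KY170R and 2916, 1073 and 2862 in KY170. The receptor ERBB3 was lower at both times, at 633, 232 and 93.5. TNFAIP3, a feedback inhibitor of NF-kB, was higher at both, at 514, 1087 and 1579.

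**Figure D3:**
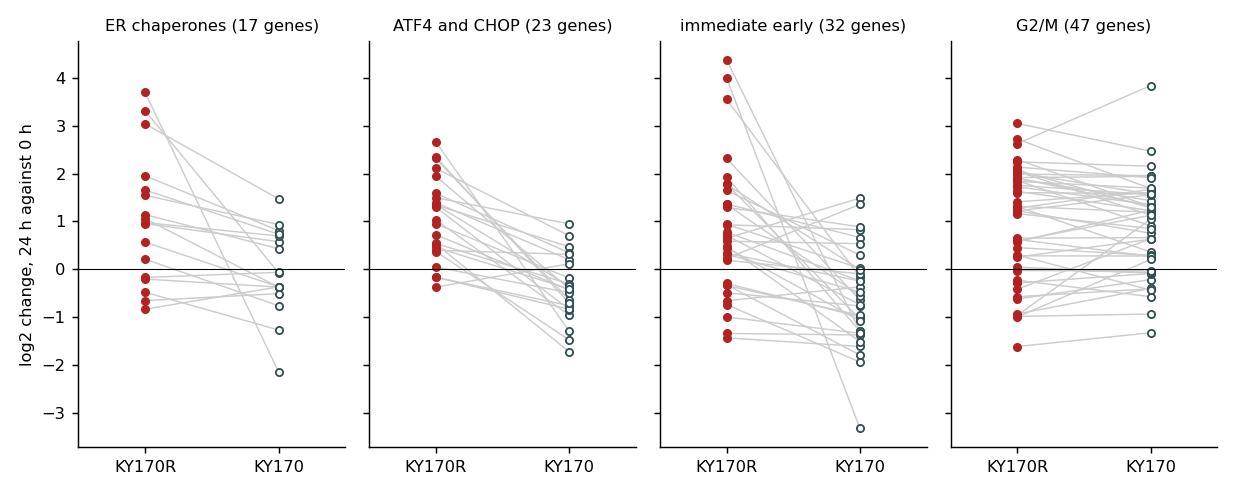
Log2 change at 24 h against 0 h of every measured gene of 4 lists, KY170R on the left and KY170 on the right of each panel, 1 point per gene at its brightest probe and a line joining the values of a gene. In the ATF4 and CHOP panel 12 of 23 genes lie at or above 1 in KY170R, and the highest KY170 point of that panel is below 1, while the G2/M panel has medians of 1.22 in KY170R and 1.13 in KY170.

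Whether KY170R and KY170 differed in how they moved away from 0 h was tested with limma on all 6 arrays. The test was a two-sided line by time interaction, 0 h against both later times, with 2 residual degrees of freedom. Its spread is that between the 8 h and 24 h arrays within a line, so any real difference between those times enters the error. A probe that did not pass is therefore not shown to move alike in both lines. None of 19351 probes passed at a Benjamini-Hochberg adjusted p under 0.05 (0%), the smallest adjusted p was 0.0544, and 1746 probes had an unadjusted p under 0.05; with a single prior variance 0 passed as well. The smallest p values belonged to KLHL30, TGM2, RASL11A, NRTN, OPLAH, KRT19, SPINK1 and TH, all under the limit on every KY170R array but for NRTN at 0 h (101), so that the fit there rested on values raised to the limit. A term for the KY170R array at 24 h alone, beside time and line, was added after the values had been seen. It asks whether the difference of KY170R from KY170 at 24 h departed from the mean of the differences at 0 and 8 h, and has 1 residual degree of freedom. Over the same 19351 probes it called 0 as well (0%; 1104 at an unadjusted p under 0.05, smallest adjusted p 0.717). Among the 12565 probes above the limit on all 6 arrays it called 129 higher (1.03%) and 65 lower (0.517%), with the spread taken wholly from other probes of like level and with 1 array behind each value, so a feature of the 24 h array and a feature of the cells cannot be told apart.

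The 194 calls in that second set carry no independent weight, since the term was chosen after the 24 h values had been seen, and the departures are given as a description. They were 6.15 log2 for the bright CCN2 probe, 4.79 for HSPA5, 5.25 for EGR1, 3.26 for DDIT3 and 3.42 for FOS. DUSP1 had 3.02, DNAJB9 2.83, ATF3 2.13, MYC 1.28, CXCL8 1.86 and IL1A 1.59. On the negative side stood the metallothioneins MT2A (-1.58), MT1E (-2.21) and MT1X (-1.36) and the ribosomal protein gene RPS26 (-1.22).

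**Figure D4:**
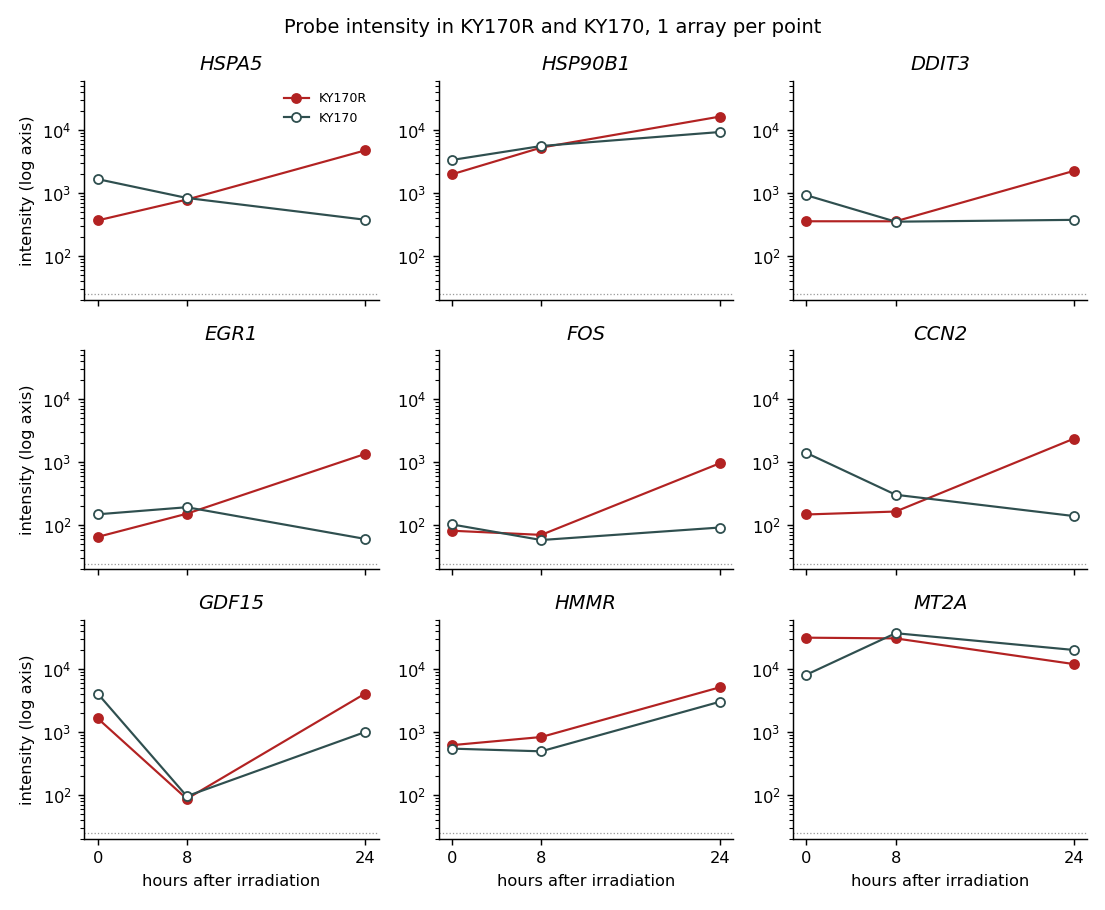
Intensity on a log axis against hours after irradiation for 9 genes at their brightest probe, KY170R filled and KY170 open, 1 array per point; the dotted line is the background limit of 24.5. EGR1 and FOS lie far above KY170 at 24 h, HSPA5 and CCN2 cross from below KY170 at 0 h to above it at 24 h, GDF15 dips to 86.1 in KY170R and 94.9 in KY170 at 8 h, and HMMR is highest at 24 h in both lines.

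Metallothioneins, small proteins that bind zinc and copper, were lower at 24 h. MT2A read 31140, 30334 and 11852 in KY170R and 8056, 36700 and 19856 in KY170, MT1X 10195, 12423 and 3783 in KY170R and 6503, 32093 and 12499 in KY170, and MT1E 6890.4, 5801 and 1570.4 in KY170R and 2629.5, 13105 and 6753 in KY170. The sequences of this family are close, so which of its RNAs each probe reads is uncertain. MT1F, at 1965, 219.8 and 315 in KY170R, was lower at 8 h already. In the whole list of antioxidant enzymes 10 of 20 measured genes were lower and 3 higher at 24 h (median -1.03). GPX4, which removes lipid peroxides, read 10031, 4576 and 4011, and PRDX3, the mitochondrial peroxiredoxin, was among the higher ones at 2969.8, 7236 and 8905.

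Mitochondrial ribosomal proteins had, apart from markers of endothelium, the lowest median of the lists at 24 h, -1.06 in KY170R and -0.72 in KY170, with 16 of 27 lower and 0 higher. MRPL28 read 1747, 592 and 307, MRPS34 1016, 476 and 216 and MRPL12 5209.9, 4134 and 1696. Subunits of oxidative phosphorylation had a median of -0.56, with 10 of 38 lower and 3 higher. Cytosolic ribosomal proteins were near 0, at -0.15. Replication-dependent histones were lower, 10 of 22 at 24 h with 0 higher, and H2AC20 read 3184, 1739.7 and 829. Histone genes share much sequence and lack long poly(A) tails, so their probes are less certain.

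Pro-apoptotic members of the BCL2 family were mostly lower. Of 10 measured pro-apoptotic genes 6 were at least 2-fold lower at 8 h and 7 at 24 h, with 0 higher at either time. In KY170, 4 of the same genes were lower and 1 higher at 8 h, and 5 lower and 1 higher at 24 h. BAD read 3217, 968 and 888, BIK 581, 98.4 and 208 and BCL2L11, which encodes BIM, 218, 101 and 77.1. Of 4 measured anti-apoptotic genes 1 was higher and 0 lower at 24 h (median 0.07). It was MCL1, a short-lived survival protein, which read 434, 986 and 952 in KY170R and 285, 1049.8 and 888 in KY170. In the squamous list, of 12 differentiation genes 7 were lower and 0 higher at 24 h, such as CNFN, a cornified envelope gene, at 1117, 460.5 and 184 and S100A9 at 1397, 290.1 and 395. Of 9 basal genes 3 were higher, 1 lower and 5 under 2-fold, with DST, a hemidesmosome linker, at 32.8, 175 and 447. The lower one was KRT5, a basal keratin, at 218, 153 and 68.3 in KY170R against 361, 484 and 484 in KY170.

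Interferon genes had no single direction, with 5 of 34 higher and 11 lower at 8 h, and 10 higher and 8 lower at 24 h. IFI44L read 33.1, 97.9 and 175 and IFIH1, a sensor of viral RNA, 52.3, 65 and 192, while PSMB9, an immunoproteasome subunit, read 2764, 1368 and 922. Heat shock genes were higher at 24 h for 8 of 19 and lower for 2. HSPD1, a mitochondrial chaperonin, read 3611, 15016 and 14459 in KY170R and 4189.6, 16528 and 16604 in KY170, whereas HSPA6, a strictly inducible HSP70, read 67.5, 61.7 and 296 in KY170R and 120.2, 208 and 24 in KY170. Among NRF2 targets 7 of 32 were higher and 3 lower at 24 h. TXNRD1, thioredoxin reductase, read 2256, 3996 and 10054, and GPX2 11230, 5348 and 5206.

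AKR1C3, the aldo-keto reductase on which the study centred, reduces steroids and prostaglandins. It read 6501, 3402 and 8805 in KY170R and 2059, 547 and 1096 in KY170. Its KY170R level was lowest at 8 h (-0.93) and above 0 h at 24 h (0.44), under 2-fold at both times, while in KY170 both later values were below that of 0 h (-1.91 and -0.91). The bright AKR1C2 probe followed the same course in KY170R. Of 6 measured aldo-keto reductases 2 were lower at 8 h and 0 higher, and 1 was higher and 1 lower at 24 h. Sequences of AKR1C1, AKR1C2 and AKR1C3 are very alike, and which RNA each probe reads is uncertain.

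Of 11 markers listed for squamous epithelium 8 matched a gene on the array, and all 8 were above the limit on at least 1 array. Among them were the general epithelial genes CDH1 (2764, 4016 and 7588) and EPCAM, and the basal keratin KRT5. TP63, KRT17 and KRT6A had no named probe. Markers of other cells were measured less often: 2 of 9 of fibroblasts, 2 of 8 of endothelium and 4 of 11 matched of immune cells. Among those under the limit on all KY170R arrays were COL1A2, COL3A1, VWF, CDH5, PTPRC and CD3E. Those above it on at least 1 array were COL1A1, PDGFRA (161, 58.5 and 35.1), PECAM1, ESAM, CD14, MS4A1, CSF1R (369, 226.5 and 237) and CD68. On its brightest probe CD68 read 1121, 924 and 570, at 0 h more than KRT5 or KRT14. The summed intensity at 0, 8 and 24 h was 238, 97.8 and 148 for the fibroblast list, 189, 72.1 and 86.7 for the endothelium list and 1610, 1243 and 888 for the immune list, against 17475, 22579 and 28082 for the squamous list. The largest part of the squamous sum came from the general epithelial genes EPCAM (6678, 11434 and 13892) and CDH1, while KRT5, KRT14 (126, 289 and 80.6) and ITGB4 (6798, 4994 and 4738) were below 0 h at 24 h. The part of these shifts in the results above was not tested. Where 2 probes of a gene were measured (2546 genes), the less bright probe had the sign of the brighter in 87.2% of the genes whose brighter probe was at least 2-fold changed at 8 h and in 89.1% at 24 h, and it was itself 2-fold changed the same way in 60.6% and 64.0%. It was 2-fold changed the opposite way for 10 genes at 8 h and 30 at 24 h.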

How the data were processed

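Total RNA of KY170R and KY170 cells was hybridised to 1-colour Illumina Human-6 V3 bead arrays, with 1 array per line and time. The deposited intensities had been read in BeadStudio by the authors, background-subtracted and normalized between arrays. The normalization method and the software version are not stated in the texts read here. The study's methods mention triplicates, and whether a column stands for a single array or a mean is unclear, so each column was treated as 1 sample and its precision is unknown. The number of arrays limits the precision of every value. Of 48803 probes, 27578 carried 1 gene symbol in the platform annotation, 13 several and 21212 none, and 27541 were matched through Entrez IDs.

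Values were raised to the background limit of 24.533 and converted to log2. Named genes were the 8 with the largest change in each direction at 8 h and at 24 h, the 6 in each direction that were lasting, transient or late (within 0.5 log2 of 0 h at the other time), the 8 probes with the smallest interaction p, and members of 34 gene lists. In the single-gene descriptions a gene takes its probe with the largest change. The members, lists and tests were chosen with earlier results of these data known. The lines were compared with limma 3.58.1 in R 4.3.3 (trended and robust eBayes, Benjamini-Hochberg adjustment, adjusted p under 0.05), and the script was tested on simulated data. Tables were made with Python 3.11.15 and pandas 2.3.3. Promoter stretches are those of the RefSeq GRCh38.p14 table. Alternatives were another floor, filter, fold threshold, normalization, centring, prior variance and probe per gene. The lines TE13 and TE13R, which the study also used, were not analysed here.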

Additional observations from a re-analysis of the deposited data

Results flagged for a closer look

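The results below are genes named in the report that were called in the limma fit with a term for the KY170R array at 24 h. That term was added after the values had been seen, has 1 array behind it and takes its spread from other probes, so the calls mark values for a closer look and do not test a difference between the lines. Each value is the departure of KY170R minus KY170 at 24 h from the mean of that difference at 0 and 8 h, in log2, over probes above the limit on all 6 arrays. Each uses the arrays of both lines at all 3 times, with 1 array per line and time, so a departure can also come from the 0 h or 8 h values. ASNS, for example, read 5098 in KY170R and 5070 in KY170 at 24 h, and 1181 and 3119 at 0 h. PADI3 read 727 and 2058 at 24 h, and 80.1 and 1499 at 8 h. Over the wider set of 19351 probes none of the genes below was called.

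Among growth and immediate early genes the departure was 6.38 for the dimmer CCN2 probe, 5.25 for EGR1, 3.42 for FOS, 2.07 for ZFP36, 1.94 for ERRFI1 and 1.39 for HBEGF. For the unfolded protein response it was 4.79 for HSPA5, 2.83 for DNAJB9 and 1.23 for HSP90B1. For the ATF4 and CHOP response and its secreted target it was 3.26 for DDIT3, 2.75 for GDF15, 2.13 for ATF3, 1.5 for TRIB3 and 1.04 for ASNS. For cytokines it was 1.86 for CXCL8 and 1.59 for IL1A. ALDOC, a brain form of the glycolytic enzyme aldolase, had 1.75, PADI3 had 1.56 and DHRS3 1.32. Negative departures were -2.90 for PCOTH, -2.21 for MT1E, -1.97 for the dimmest MRPL11 probe and -1.87 for PAGR1. The brightest MRPL11 probe was not called. TRIB3, DHRS3, PADI3, ZFP36 and ALDOC lay within 2-fold of 0 h at 24 h in KY170R. ZFP36 read 1025, 354 and 1432 in KY170R and 1054, 405 and 369.5 in KY170, and ALDOC 1502, 510 and 1440.3 in KY170R and 2653, 989 and 791 in KY170.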

How the results depend on the processing

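Replicates could not be paired because each line and time has 1 array. The fit with the term for the KY170R array at 24 h held time and line, so it compared the lines at the same times. Counts depend on the fold threshold by construction. At 1.5-fold, 4672 probes were higher and 4806 lower at 8 h, 5972 were lower at 24 h, and 3349 were higher and 3443 lower at 24 h than at 8 h. At 3-fold, 1328 were higher and 1077 lower at 8 h, 2004 higher and 1530 lower at 24 h, and 440 higher and 306 lower at 24 h than at 8 h. With the floor at 1, 2095 probes were lower at 24 h than at 8 h. The line by time interaction called 869 probes with the floor at 2 times the limit, of which 822 had no residual spread because their values lay at the floor. The term for the KY170R array at 24 h called 64 with the floor at 1, 444 with the floor at 2 times the limit (434 with no residual spread) and 194 above the limit on all 6 arrays. The other 38 of 54 counts stayed within 1.5 times the main value. Of 340 list medians 337 and of 440 named gene changes 380 moved little, and 0 called values changed sign. Most of the 60 named changes that moved belong to genes with an array at or under the floor. With the median change set to 0, probes higher at 24 h made up 59.7% of those past 2-fold, against 51.3% as deposited. Medians near 0 turned sign for heat shock (-0.04 to 0.01 at 8 h), cytosolic ribosomal proteins (-0.15 to 0.00) and TGF-beta (-0.01 to 0.15, both 24 h) under centring, for squamous (0.09 to 0.00 at 8 h) and Notch genes (0.11 to -0.16 at 24 h) with the mean over probes, and for interferon genes (0.01 to -0.04 at 24 h) with the floor at 1.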

Other observations

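Metabolic gene groups not described above were mixed in KY170R. For hypoxia and glycolysis, 8 of 29 measured genes were higher and 3 lower by 2-fold or more at 24 h. PFKFB4, a kinase that speeds glycolysis, read 349, 1095 and 1382 at 0, 8 and 24 h, BNIP3L, a mitophagy receptor, 334, 479 and 1314, and VEGFA, an angiogenic factor, 193, 119 and 561. P4HA1, a collagen prolyl hydroxylase, was on the other side at 263, 95.1 and 38.9. For cholesterol synthesis, 6 of 22 measured genes were higher and 8 lower by 2-fold or more at 24 h. HMGCS1, which makes HMG-CoA, read 463, 1258 and 1717 and SC5D, a late enzyme of the pathway, 365, 861 and 1586, while PMVK, phosphomevalonate kinase, read 340.5, 95.5 and 48.

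Of 11 measured TGF-beta and BMP target genes 1 was higher, 4 lower and 6 under 2-fold at 8 h. ID1, an inhibitor of differentiation induced by BMP, read 10087, 1909 and 5382 in KY170R and 5696, 837 and 2702 in KY170, ID3 7949, 2338 and 4325 in KY170R and 6039.9, 2434 and 2717 in KY170, and SMAD6, a feedback inhibitor, 199, 21.5 and 47 in KY170R and 316, 9.9 and 81.8 in KY170. SNAI2, an EMT transcription factor, read 591, 1955 and 2579 in KY170R and 746, 1583 and 1553 in KY170, and CDH1, E-cadherin, was higher at 24 h as well in KY170R. In the Notch list 4 of 13 genes were at least 2-fold lower at 8 h and 0 higher, with NOTCH3 at 329, 26.1 and 119. In antigen presentation, 1 of 12 measured genes were higher and 4 lower by 2-fold or more at 24 h, with PSMB8, an immunoproteasome subunit, at 5172, 2070.5 and 2551 and TAP2, a peptide transporter, at 922, 2012 and 1894. Of Fanconi anemia genes 2 of 7 were higher and 2 lower at 24 h, and FANCL read 669, 1202 and 2644 in KY170R and 676, 745 and 2564 in KY170. H19, an imprinted noncoding RNA, read 3838, 2473 and 1836 in KY170R and 617, 231 and 107 in KY170.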
